A study of Mus musculus with 6 samples.

Results

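The type I interferon antiviral genes are 37 mouse genes that cells switch on in response to type I interferon. The set was given by name and covers antiviral effectors, nucleic acid sensors, signalling factors, guanylate-binding proteins and Schlafen genes. All 37 matched a symbol among the 46603 genes counted in each library, and all 37 were among the 15069 genes with enough counts to be tested. Their RNA was sequenced from whole bone marrow of 6 mice of the strain C57/Bl6 aged 8 months. There were 3 NM1 KO mice, which lack nuclear myosin 1, and 3 NM1 WT mice, which carry the wild-type form, and no animal received a treatment per the labels. Nuclear myosin 1 is a form of the motor protein encoded by Myo1c. Per the labels' protocols, each library came from the marrow of the leg bones of a single mouse, so the 3 replicates of a genotype were separate animals. No cell type was sorted, and the labels give neither the design of the knockout allele nor whether the groups were littermates.

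Type I interferons bind a receptor made of Ifnar1 and Ifnar2, whose kinases Jak1 and Tyk2 activate Stat2. Stat2 and Irf9 are part of the factor ISGF3, which binds the interferon-stimulated response element (ISRE) in the promoters of genes such as those described here. In bone marrow, low interferon signalling sets a resting level of these genes without infection, and stronger signalling is known to act on blood stem cells and myeloid cells.

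Promoter sequence is shown first. The genes were given by name and not by promoter letters. As ISGF3 acts on such genes through the ISRE, many copies among them are no separate support for the set. Of the 37 genes, 27 had an entry in RefSeq's table of 300 bases around the start (250 before and 50 after, GRCm38.p6). The ISRE core was searched as GAAANNGAA on both strands, where N is any base and copies may overlap each other. It was found in 18 of these 27 promoters, or 66.7%, against promoters of 2638 of 27025 genes in the table, or 9.76%. A shorter core, AANNGAAA, which shares letters with the longer one, was found in 23 of the 27 (85.2%) against 26.7% of all promoters. The gamma-activated site, an element of interferon gamma responses searched as TTCNNNGAA on both strands, was found in 5 of the 27 (18.5%) against 9.55%. It overlapped an ISRE core in 0 of these promoters. A match describes letters only and does not show a bound site.

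The 200 bases before the RefSeq start are printed for Ifit1, Ifit3 and Isg15, with 3 core copies each, for Oas3 with 2, for Rsad2 with 1 and for Ifit2 with 0. They show how genes of the same response, and even of the same family, differ in copies of the core. Capitals mark GAAANNGAA or its reverse complement, and each sequence reads 5′ to 3′ on the strand of its gene. The positions are Ifit1 at chr19:34640689-34640888 (plus strand), Ifit3 at chr19:34583329-34583528 (plus strand), Isg15 at chr4:156200819-156201018 (minus strand), Oas3 at chr5:120777660-120777859 (minus strand), Rsad2 at chr12:26456453-26456652 (minus strand) and Ifit2 at chr19:34550494-34550693 (plus strand) in GRCm38.p6.
Ifit1: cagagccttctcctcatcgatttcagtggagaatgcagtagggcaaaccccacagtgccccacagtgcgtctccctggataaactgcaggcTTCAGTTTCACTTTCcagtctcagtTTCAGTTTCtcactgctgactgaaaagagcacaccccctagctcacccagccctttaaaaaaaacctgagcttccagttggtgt
Ifit3: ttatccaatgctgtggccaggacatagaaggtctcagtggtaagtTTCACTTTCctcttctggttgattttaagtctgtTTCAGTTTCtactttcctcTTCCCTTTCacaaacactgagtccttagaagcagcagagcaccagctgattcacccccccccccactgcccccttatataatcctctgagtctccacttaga
Isg15: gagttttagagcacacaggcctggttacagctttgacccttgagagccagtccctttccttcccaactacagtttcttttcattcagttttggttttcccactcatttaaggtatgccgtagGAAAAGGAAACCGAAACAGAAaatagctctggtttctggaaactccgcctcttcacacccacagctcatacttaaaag
Oas3: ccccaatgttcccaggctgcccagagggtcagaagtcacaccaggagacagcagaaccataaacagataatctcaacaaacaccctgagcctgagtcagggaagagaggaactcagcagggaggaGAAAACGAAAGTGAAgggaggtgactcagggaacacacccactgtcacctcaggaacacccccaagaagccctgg
Rsad2: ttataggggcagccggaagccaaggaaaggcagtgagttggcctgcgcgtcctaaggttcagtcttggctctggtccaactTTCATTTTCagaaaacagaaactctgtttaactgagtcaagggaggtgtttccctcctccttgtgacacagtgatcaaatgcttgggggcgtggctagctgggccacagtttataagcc
Ifit2: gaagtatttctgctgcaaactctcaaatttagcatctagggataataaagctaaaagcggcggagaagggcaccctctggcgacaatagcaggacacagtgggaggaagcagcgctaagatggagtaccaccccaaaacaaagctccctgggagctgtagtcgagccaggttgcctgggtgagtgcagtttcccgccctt

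In Ifit1 the first and second copies overlap, so the capitals run together, and the third lies closer to the start. Isg15 and Oas3 also carry overlapping copies, at -78, -72 and -66 and at -75 and -69 counted from the start at 0. Ifit3 has 3 copies, at -155, -121 and -102, and its near-identical neighbour Ifit3b has its 3 at -187, -153 and -134. Ifit2, which lies beside them on chromosome 19, had none of these letters in the window. The plot of core positions gives the copies of every matched gene. Usp18, Oas2, Mx1, Mx2, Dhx58, Zbp1, Ifi204, Ifi27l2a, Rtp4 and Parp14 were not analysed for promoter letters.

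**Figure D1:**
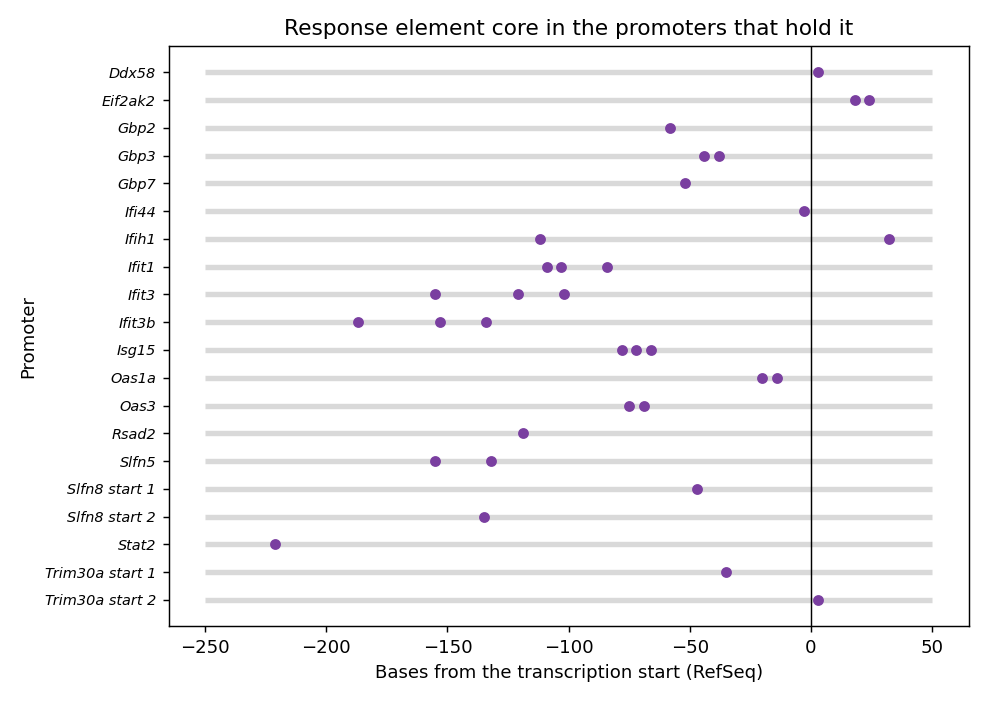
Position of each ISRE core match (GAAANNGAA, either strand) in the promoters of the 18 genes that had one, as distance in bases from the RefSeq start at 0; Slfn8 and Trim30a have a line for each of 2 starts. Copies sit before the start in most genes, and Ifit1, Ifit3, Ifit3b and Isg15 have 3 each.

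Library totals were 21101616 to 22618802 counts in NM1 KO and 15145052 to 17580660 counts in NM1 WT, so each NM1 KO library was deeper than each NM1 WT library. Levels are given as CPM, which are counts scaled by library size with TMM factors, where 1 CPM stood for 14.7 to 23 counts. Myo1c, the gene of the knocked-out form, had 73.8, 59.1 and 59.7 CPM in NM1 KO 1 to 3 and 89.8, 115 and 102 CPM in NM1 WT 1 to 3. Its log2 fold change, NM1 KO over NM1 WT, was -0.67 (SE 0.14, adjusted p = 0.0516). The count adds up all forms of Myo1c, so it does not check the loss of the nuclear form alone. Reads of the Y-linked genes Ddx3y, Uty, Kdm5d and Eif2s3y were present in NM1 KO 1, NM1 KO 2 and NM1 WT 2 (2723 to 4566 counts) and were 0 in NM1 KO 3, NM1 WT 1 and NM1 WT 3, and the labels give no sex. This mix differs between the genotypes, and results on which it bears are given below with and without it.

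Most of the antiviral genes had lower values in NM1 KO marrow, and no single gene passed the test. Of the 37 genes, 29 had a negative log2 fold change and 8 a positive one. Their median was -0.44, whereas 49.8% of all tested genes were negative with a median of 0.00. With edgeR's quasi-likelihood test and Benjamini-Hochberg adjustment over the 15069 tested genes, 0 of 37 had an adjusted p under 0.05, against 0.776% of all genes in either direction (0.186% lower and 0.591% higher). At an unadjusted p under 0.05, 16 of 37 were lower and 0 higher, against 8.32% and 8.44% of all genes. In 11 of 37 every NM1 KO library lay below every NM1 WT library, and in 0 the reverse held, against 9.75% and 10.8% of all genes. DESeq2 gave 9 of 37 genes an adjusted p under 0.05, all lower in NM1 KO, against 2.72% of all genes lower and 5.49% in either direction. limma-voom gave 0 of 37, against 0.0929% lower and 0.246% in either direction. In whole marrow, fewer cells of a type and less RNA per cell cannot be told apart.

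The median log2 fold change varied between the roles of the genes. The oligoadenylate synthetases (median -1.08, 5 of 5 negative) and the IFIT genes (median -1.07, 3 of 4 negative) had the most negative medians. The 6 nucleic acid sensors were all negative, with a median of -0.52. The 3 guanylate-binding proteins were all positive, with a median of 0.19, and the 3 enzymes Rsad2, Cmpk2 and Isg20 had a median of 0.02. Differences between roles were not tested.

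**Figure D2:**
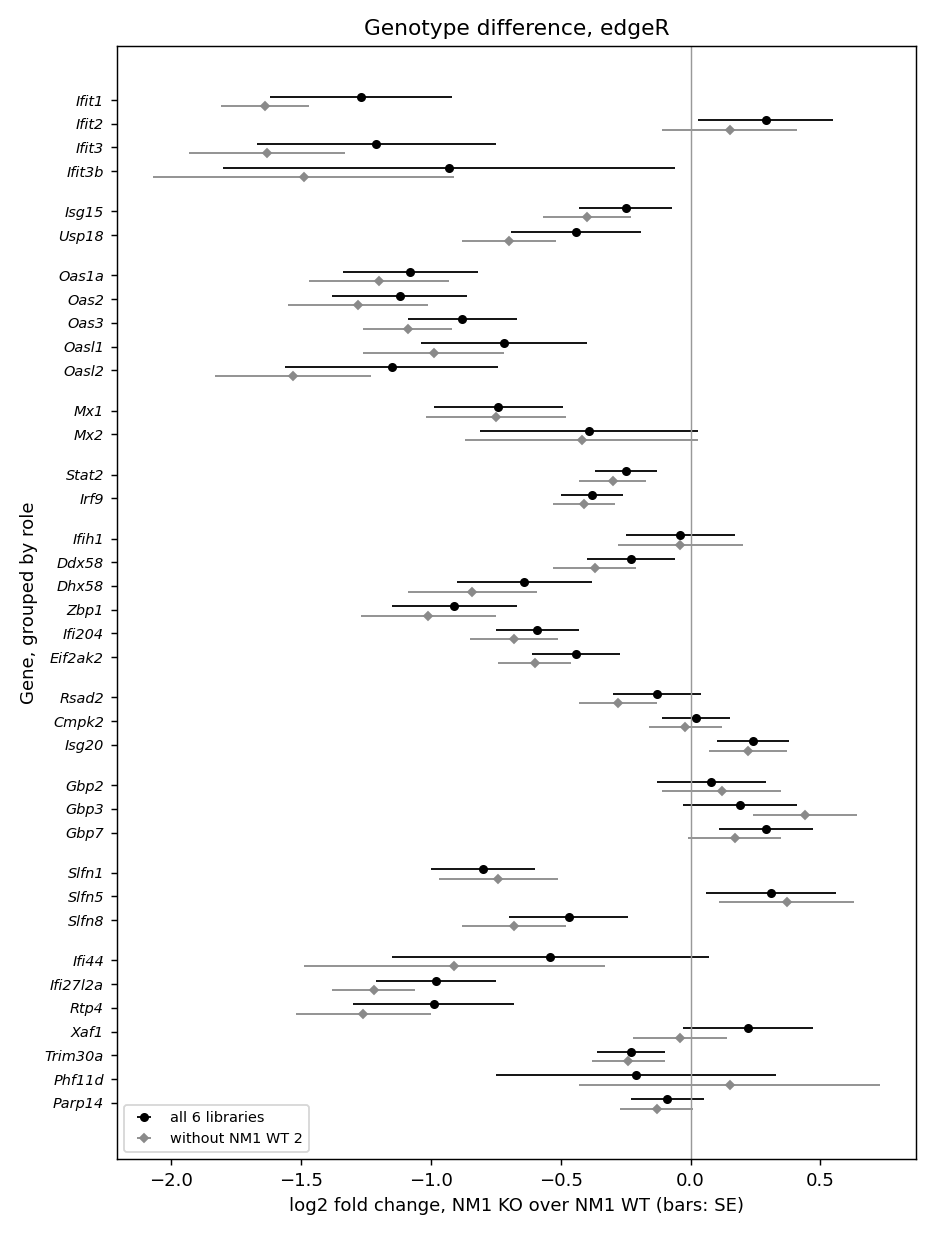
Log2 fold change, NM1 KO over NM1 WT, of each of the 37 genes with its standard error, grouped by role, from all 6 libraries (black circles) and without NM1 WT 2 (grey diamonds). Most black points lie left of 0, from -1.27 for Ifit1 to 0.31 for Slfn5, and none of the black points passed the adjusted threshold. NM1 WT 2 was the lowest NM1 WT library for 26 of the 37 genes, so the grey points favour a larger difference.

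The oligoadenylate synthetases make short adenylate chains that activate RNase L, which cuts viral and cellular RNA. All 5 genes of this family in the set had an unadjusted p under 0.05, and 3 of them did not overlap between the genotypes. Oas2 had 10.6, 12.7 and 12.1 CPM in NM1 KO 1 to 3 and 38.3, 19.5 and 19.4 CPM in NM1 WT 1 to 3. All NM1 KO libraries were below all NM1 WT libraries, and NM1 WT 1 stood above the other two of its genotype. The means of 11.8 ± 1.08 and 25.7 ± 10.9 CPM (SD, n = 3) gave a difference of -1.12 log2 units (SE 0.26, adjusted p = 0.0752). Oas1a had 6.70, 11.6 and 13.6 CPM in NM1 KO and 24.7, 18.3 and 24.4 CPM in NM1 WT, with no overlap. Its log2 fold change was -1.08 (SE 0.26, adjusted p = 0.0826). Oas3, the largest protein of the family, had 61.9, 64.2 and 87.5 CPM in NM1 KO and 170, 91.0 and 133 CPM in NM1 WT. Here NM1 WT 2 was only just above the highest NM1 KO library, and the log2 fold change was -0.88 (SE 0.21, adjusted p = 0.0837). Reads shared between the near-identical Oas1 copies make the Oas1a value uncertain. Of 3 further Oas1 genes tested outside the set, Oas1g (log2 fold change -1.71, adjusted p = 0.155) and Oas1b (-0.60, adjusted p = 0.160) had an unadjusted p under 0.05 and Oas1c (-0.40, adjusted p = 0.585) did not, and Oas1b alone of these 3 did not overlap.

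Oasl2, an oligoadenylate synthetase-like gene, had 19.5, 22.3 and 42.7 CPM in NM1 KO and 97.4, 24.7 and 65.6 CPM in NM1 WT. NM1 WT 2 was among the NM1 KO libraries, and NM1 WT 1 was 3.95 times as high as NM1 WT 2. The log2 fold change was -1.15 (SE 0.41, adjusted p = 0.189), and -1.53 (adjusted p = 0.0415) when NM1 WT 2 was left out. NM1 WT 2 was the lowest NM1 WT library for 26 of 37 genes, so leaving it out favours a larger difference. Values without NM1 WT 2, here and below, are therefore a description and not separate support. Oasl1, which in mice restrains the translation of Irf7, ranged from 7.46 to 9.57 CPM in NM1 KO and from 8.17 to 21.3 CPM in NM1 WT (log2 fold change -0.72, adjusted p = 0.281).

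The IFIT proteins bind viral RNA and block its translation. Ifit1 had 12.9, 14.1 and 14.5 CPM in NM1 KO 1 to 3 and 48.5, 13.4 and 38.1 CPM in NM1 WT 1 to 3. The NM1 KO libraries were close together, NM1 WT 1 and NM1 WT 3 stood above all of them, and NM1 WT 2 was level with them. The spread within NM1 WT, a coefficient of variation (CV, the SD as a share of the mean) of 54.0%, exceeded the 6.27% that counting read pairs would give, whereas the 6.07% within NM1 KO did not exceed its counting value of 8.12%. The means were 13.8 ± 0.839 and 33.3 ± 18 CPM, a difference of -1.27 log2 units (SE 0.35, adjusted p = 0.115). Without NM1 WT 2 it was -1.64 (adjusted p = 0.00352).

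Ifit3 followed the same order, with 4.00, 6.72 and 5.72 CPM in NM1 KO and 21.4, 4.17 and 12.6 CPM in NM1 WT. NM1 WT 1 was 5.14 times as high as NM1 WT 2, which lay inside the NM1 KO range. The log2 fold change was -1.21 (SE 0.46, adjusted p = 0.214), and -1.63 (adjusted p = 0.0391) without NM1 WT 2. Its neighbour Ifit3b was low, at 1.04, 1.47 and 1.41 CPM in NM1 KO and 5.84, 0.116 and 1.57 CPM in NM1 WT. The difference of -0.93 on the log2 scale (SE 0.87, adjusted p = 0.643) was within this spread. The value in NM1 WT 2 rests on 2 counts, under the floor of 6 counts per library set here, which is 3 read pairs. Reads shared between Ifit3 and Ifit3b can be split or dropped, so both levels are uncertain. Ifit2 went the other way, with 10.6 to 17.4 CPM in NM1 KO and 8.92 to 14.6 CPM in NM1 WT (log2 fold change 0.29, adjusted p = 0.613).

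Isg15, a ubiquitin-like protein that is attached to other proteins during infection, ranged from 105 to 147 CPM in NM1 KO and from 114 to 185 CPM in NM1 WT (log2 fold change -0.25, adjusted p = 0.534). Usp18 removes Isg15 from proteins and restrains the interferon receptor. It had 14.3, 16.7 and 15.1 CPM in NM1 KO and 26.5, 12.5 and 23.7 CPM in NM1 WT. NM1 WT 2 was the lowest of the 6 libraries, and the log2 fold change was -0.44 (SE 0.25, adjusted p = 0.403).

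The Mx genes encode GTPases that trap viral particles, although the Mx1 allele of this strain is known to make no working protein. Mx1 had 4.96, 6.45 and 6.85 CPM in NM1 KO and 9.23, 9.97 and 11.3 CPM in NM1 WT. The groups did not overlap and NM1 WT 2 lay between the other NM1 WT libraries, and the log2 fold change was -0.74 (SE 0.25, adjusted p = 0.177). Mx2, annotated as a polymorphic pseudogene, ranged from 1.75 to 3.38 CPM in NM1 KO and from 3.01 to 3.53 CPM in NM1 WT (log2 fold change -0.39, adjusted p = 0.692).

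Stat2 and Irf9, which act in ISGF3, had small differences with little spread. Irf9 had 93.3, 98.3 and 101 CPM in NM1 KO and 140, 120 and 121 CPM in NM1 WT, with no overlap. Its log2 fold change was -0.38 (SE 0.12, adjusted p = 0.151), and its exons overlap those of Rnf31. Stat2 had 46.8, 50.7 and 47.9 CPM in NM1 KO and 58.2, 53.7 and 61.2 CPM in NM1 WT, again with no overlap. Here the log2 fold change was -0.25 (SE 0.12, adjusted p = 0.339). In both genes NM1 WT 2 lay above all NM1 KO libraries, unlike in Ifit1 or Oasl2.

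Among the sensors of foreign nucleic acid, Zbp1, which binds Z-form nucleic acid and triggers cell death, had 11.6, 10.1 and 16.5 CPM in NM1 KO and 31.6, 20.5 and 19.8 CPM in NM1 WT. The groups did not overlap, and the log2 fold change was -0.91 (SE 0.24, adjusted p = 0.107). Ifi204, a DNA sensor, had 22.8, 26 and 19.8 CPM in NM1 KO and 37.3, 30.0 and 36 CPM in NM1 WT. It too did not overlap (log2 fold change -0.59, SE 0.16, adjusted p = 0.115). Eif2ak2, the kinase PKR that stops translation on double-stranded RNA, had 47.3, 53.0 and 52.4 CPM in NM1 KO and 85.2, 53.1 and 69.2 CPM in NM1 WT. NM1 WT 2 exceeded the highest NM1 KO library by only a small margin, and the log2 fold change was -0.44 (SE 0.17, adjusted p = 0.208).

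The 3 helicases of the RIG-I family differed among themselves. Dhx58 (LGP2), which tunes the other two, ranged from 12.1 to 24.2 CPM in NM1 KO and from 19.6 to 34.5 CPM in NM1 WT (log2 fold change -0.64, adjusted p = 0.253). Ddx58, which encodes RIG-I itself, ranged from 28.1 to 36.9 and from 30.3 to 43.3 CPM (log2 fold change -0.23, adjusted p = 0.536). Ifih1 (MDA5), the sensor of long double-stranded RNA, ranged from 11.6 to 18.7 and from 16.2 to 17.0 CPM (log2 fold change -0.04, adjusted p = 0.951). The antisense gene Dhx58os overlaps exons of Dhx58, and the strand setting of the counting is not given in the sources used here.

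The 3 enzymes that act on viral replication differed little between the genotypes. Isg20, an exonuclease that degrades RNA, had 261, 307 and 358 CPM in NM1 KO and 271, 252 and 260 CPM in NM1 WT. NM1 KO 1 lay among the NM1 WT libraries, and the log2 fold change was 0.24 (SE 0.14, adjusted p = 0.402). Rsad2 (viperin), which makes a chain-ending nucleotide, ranged from 506 to 627 CPM in NM1 KO and from 498 to 783 CPM in NM1 WT (log2 fold change -0.13, adjusted p = 0.747). Cmpk2, the mitochondrial nucleotide kinase encoded next to Rsad2 on chromosome 12, ranged from 81.8 to 108 and from 89.1 to 100 CPM (log2 fold change 0.02, adjusted p = 0.969).

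The guanylate-binding proteins are GTPases that attack membranes around microbes, and they respond to interferon gamma as well. Gbp7 had 27.8, 36.8 and 38.0 CPM in NM1 KO and 27.4, 23.2 and 33.4 CPM in NM1 WT. The groups overlapped (log2 fold change 0.29, SE 0.18, adjusted p = 0.461). Gbp2 ranged from 11.1 to 16.5 CPM in NM1 KO and from 12.3 to 13.4 CPM in NM1 WT (log2 fold change 0.08, adjusted p = 0.888). Gbp3 ranged from 15.6 to 17.9 and from 11.3 to 19.2 CPM (log2 fold change 0.19, adjusted p = 0.709). These genes sit together on chromosome 3, and reads shared between copies make their values uncertain.

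The Schlafen genes are a cluster on chromosome 11 with roles in growth control of lymphocytes and in virus restriction. Slfn1 had 107, 60.2 and 83.9 CPM in NM1 KO and 165, 157 and 116 CPM in NM1 WT. The genotypes did not overlap, NM1 WT 2 was close to NM1 WT 1, and the log2 fold change was -0.80 (SE 0.20, adjusted p = 0.0933). Slfn8 ranged from 13.4 to 15.9 CPM in NM1 KO and from 14.4 to 28.2 CPM in NM1 WT (log2 fold change -0.47, adjusted p = 0.339). Slfn5 went the other way, from 7.97 to 11.9 and from 7.74 to 9.16 CPM (log2 fold change 0.31, adjusted p = 0.573). Paralogs of this cluster share sequence, so their counts are uncertain. Myo1c lies on the same chromosome. Measured to the nearer end of each gene, Slfn5, Slfn8 and Slfn1 are 7.28, 7.33 and 7.44 Mb from it, with Xaf1 at 3.34 Mb and Dhx58 at 25.0 Mb. Whether sequence around the targeted gene differs between the groups was not tested.

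Of the remaining genes, Ifi27l2a, a small interferon-induced protein, had 18.1, 20.1 and 23.9 CPM in NM1 KO and 49.3, 25.6 and 47.7 CPM in NM1 WT. All NM1 KO libraries were below all NM1 WT libraries, with NM1 WT 2 nearest to them. The log2 fold change was -0.98 (SE 0.23, adjusted p = 0.0802), and -1.22 (adjusted p = 0.0109) without NM1 WT 2. Rtp4, a chaperone of receptors that also binds viral RNA, ranged from 11.2 to 17.6 CPM in NM1 KO and from 17.4 to 47.0 CPM in NM1 WT (log2 fold change -0.99, adjusted p = 0.150). Ifi44 was low and scattered, at 0.957, 3.5 and 1.27 CPM in NM1 KO and 3.39, 1.16 and 3.80 CPM in NM1 WT. NM1 KO 2 was 3.66 times as high as NM1 KO 1, so the difference of -0.54 on the log2 scale (SE 0.61, adjusted p = 0.707) lay within the spread of either genotype.

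Trim30a, a restraint on inflammatory signalling, ranged from 53.4 to 60.9 CPM in NM1 KO and from 60.4 to 76.4 CPM in NM1 WT (log2 fold change -0.23, adjusted p = 0.420). Parp14, which attaches ADP-ribose to proteins, ranged from 45.8 to 53.5 and from 49 to 59.6 CPM (log2 fold change -0.09, adjusted p = 0.783). Xaf1, a promoter of apoptosis, ranged from 21.2 to 28.9 and from 13.2 to 27.6 CPM (log2 fold change 0.22, adjusted p = 0.708). Phf11d was near 2 CPM in both genotypes, at 1.13 to 1.97 and 0.950 to 2.67 CPM (log2 fold change -0.21, adjusted p = 0.891).

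**Figure D3:**
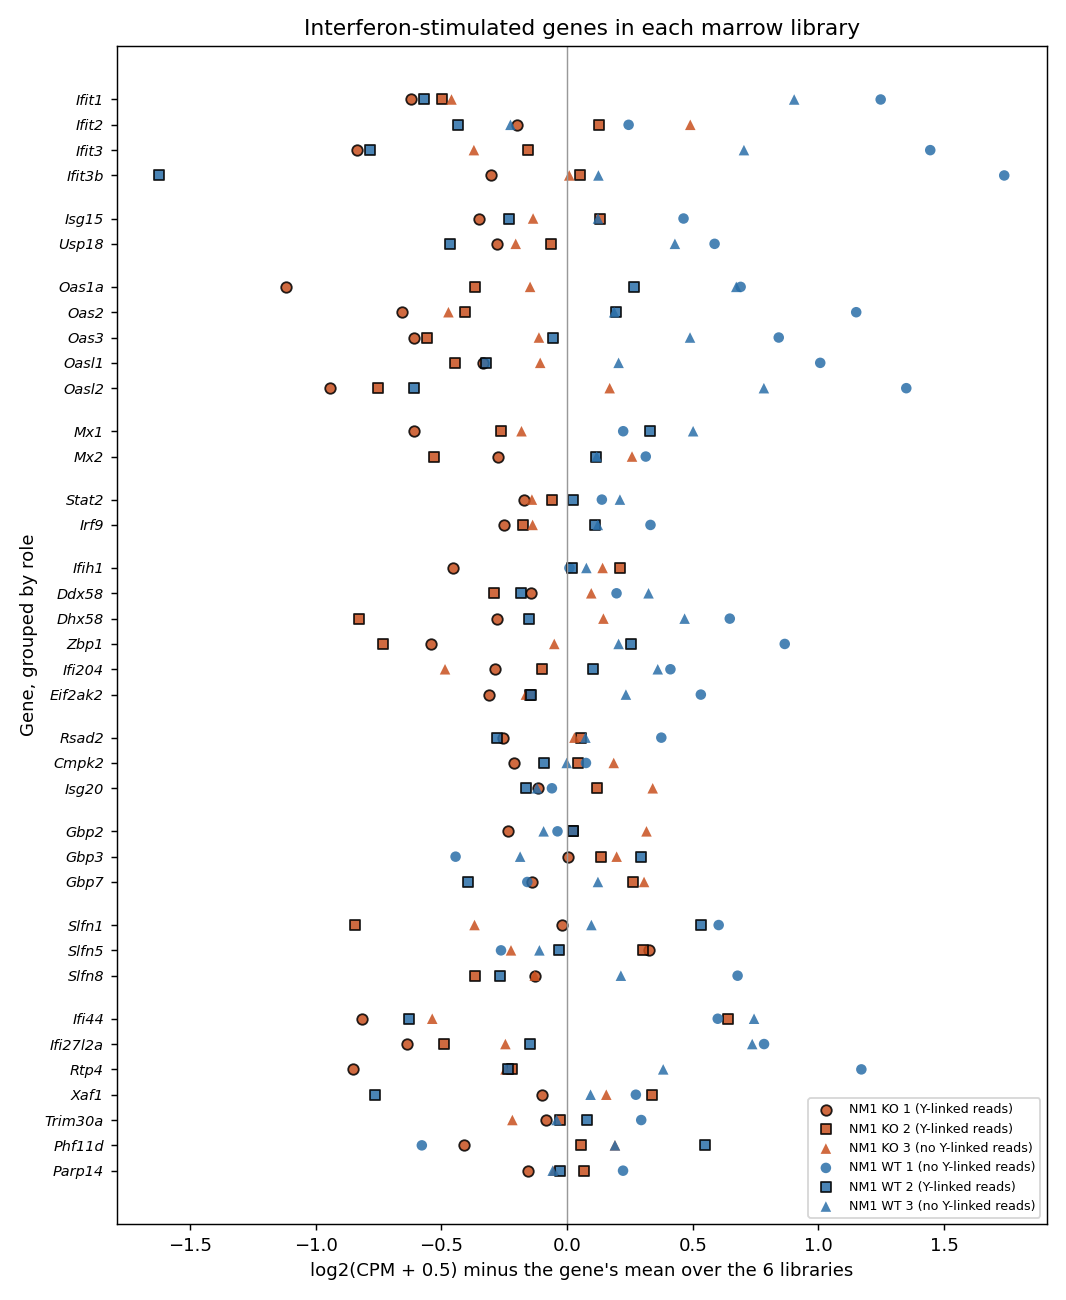
Level of each of the 37 genes in each of the 6 libraries, as log2(CPM + 0.5) minus the mean of that gene over the libraries, grouped by role, with a black rim for libraries that hold Y-linked reads. NM1 WT 1 is the highest library for 23 genes and NM1 KO 1 the lowest for 18.

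Levels between genes were compared per length, as CPM per kilobase of exon. Isg20, Isg15 and Rsad2 were the highest of the set, at 166, 165 and 134 CPM per kilobase in NM1 KO and 140, 196 and 147 in NM1 WT. These 3 thus stood far above Ifit1 (5.20 and 12.6) and Oas2 (2.65 and 5.78), whose genotype differences were larger. Ifi27l2a (44.7 and 88.2) and Slfn1 (44.9 and 78.4) were the next highest. The lowest levels were those of Ifi44 (0.311 and 0.454) and Phf11d (0.359 and 0.414).

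**Figure D4:**
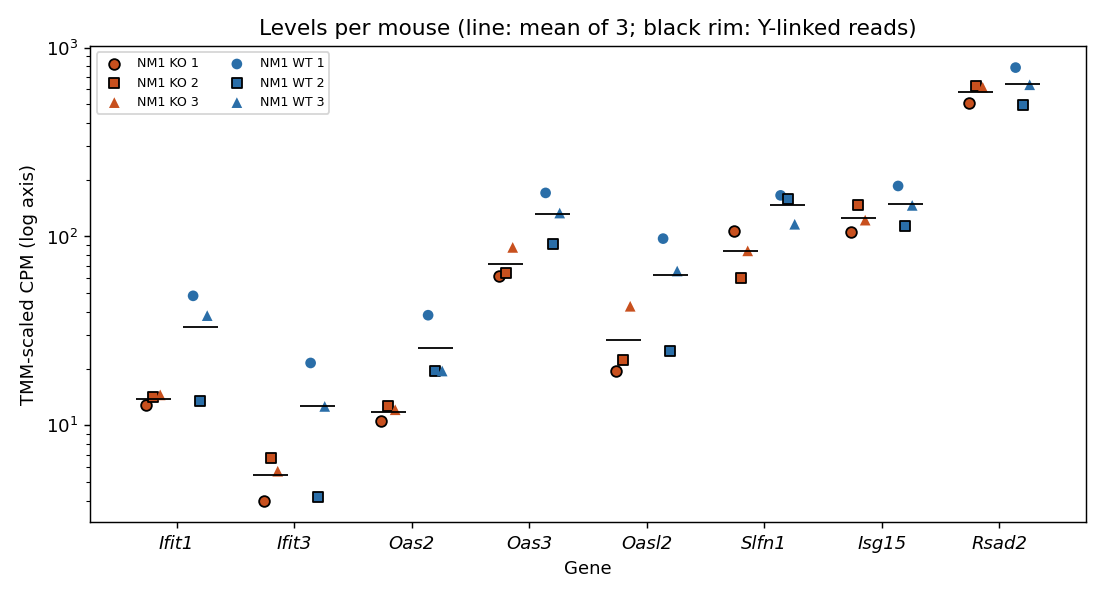
Level of 8 genes in CPM on a log axis, with 1 point per library, a line at the mean of each genotype and a black rim for libraries that hold Y-linked reads. The NM1 KO points of Ifit1 sit between 12.9 and 14.5 CPM, with NM1 WT 2 among them at 13.4 CPM, while for Slfn1 all NM1 WT points lie above all NM1 KO points.

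The 6 libraries did not spread evenly over these genes. NM1 WT 1 was the highest of the 6 libraries for 23 of 37 genes, against 17.8% of all tested genes, and NM1 KO 1 was the lowest for 18 of 37, against 11%. NM1 WT 2 was the lowest NM1 WT library for 26 of 37, against 38.6% of all genes. The mean log2 level of the 37 genes, after adding 0.5 CPM, came to 4.27, 4.47 and 4.57 in NM1 KO 1 to 3 and 5.11, 4.47 and 4.87 in NM1 WT 1 to 3. On this scale NM1 WT 2 was level with NM1 KO 2, and the genotypes overlapped. Log2 levels over all tested genes placed NM1 WT 2 no nearer to its own genotype. Its correlations were 0.982, 0.971 and 0.977 with NM1 KO 1 to 3, and 0.976 and 0.974 with NM1 WT 1 and NM1 WT 3. Across the 37 genes the CV had a median of 16.3% in NM1 KO and 23.9% in NM1 WT, against 16.2% and 17.5% over all genes. The CV was larger in NM1 WT for 25 of 37 genes, against 53.9% of all genes.

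In 22 of 37 genes NM1 WT 1 and NM1 WT 3 were both above every NM1 KO library, against 21.0% of all genes, and these 22 split evenly by the position of NM1 WT 2. In 11 of them NM1 WT 2 was not above the NM1 KO libraries, a pattern of 11.2% of all genes: Ifit1, Ifit3, Ifit3b, Usp18, Oasl1, Oasl2, Ddx58, Dhx58, Rsad2, Slfn8 and Rtp4. In the other 11 it was above them, namely in Oas1a, Oas2, Oas3, Mx1, Stat2, Irf9, Zbp1, Ifi204, Eif2ak2, Slfn1 and Ifi27l2a. In NM1 WT 2, Ifit1 thus stood within the NM1 KO range and Usp18 below it. Mx1, Irf9 and Slfn1 stood at the level of the other NM1 WT libraries there. Leaving NM1 WT 2 out moved the median log2 fold change from -0.44 to -0.60 and gave 7 of 37 genes an adjusted p under 0.05, all lower in NM1 KO, against 1.31% of all genes lower and 2.18% in either direction. These were Ifit1, Ifit3, Oas2, Oas3, Oasl2, Rtp4 and Ifi27l2a. With NM1 WT 1 left out instead, the median was -0.26 and 0 of 37 passed. As NM1 WT 2 was the lowest NM1 WT library for most of these genes, its omission favours a larger difference.

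NM1 WT 2 is also the only NM1 WT library with Y-linked reads, so its level and that state cannot be told apart. Set against NM1 WT 1 and NM1 WT 3, it was lower for 32 of 37 genes, with a median log2 difference of -0.45. Of these genes 0 passed the adjusted threshold (0.0995% of all genes) and 17 had an unadjusted p under 0.05 (14.5%). With a term for Y-linked reads beside genotype, 28 of 37 genes had a negative genotype difference. In that fit 0 passed the adjusted threshold, against 0.398% of all genes. A fit with genotype, Y-linked reads and their interaction gave the genotype difference within each kind of library. With 1 or 2 libraries in each cell it assumes that a lone library varies like the others. Among libraries without Y-linked reads (NM1 KO 3 against NM1 WT 1 and NM1 WT 3) the median log2 fold change was -0.43, with 28 of 37 negative, 14 at an unadjusted p under 0.05 (16.8% of all genes) and 0 passing the adjusted threshold (0.179%). The smallest adjusted p was 0.0544, for Ifit1, at a log2 fold change of -1.58. Among libraries with Y-linked reads (NM1 KO 1 and NM1 KO 2 against NM1 WT 2) the median was -0.11, with 23 of 37 negative, 8 at an unadjusted p under 0.05 (13% of all genes) and 0 passing (0.0929%).

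Single genes differed in how far they held in both kinds of library. Slfn1 had -0.74 without and -0.91 with Y-linked reads, Oas2 -1.25 and -0.74, Zbp1 -0.64 and -0.91, Mx1 -0.58 and -0.81, and Irf9 -0.37 and -0.33. For Ifit1 the values were -1.58 and 0.00, for Oasl2 -0.93 and -0.24 and for Usp18 -0.74 and 0.31. The test of the difference between the kinds of library passed the adjusted threshold for 0 of 37 genes (0.0332% of all genes), and 5 of 37 had an unadjusted p under 0.05 (12.2%), with the smallest adjusted p at 0.228 for Ifit1. So a difference between the kinds of library was not shown for any of these genes.

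**Figure D5:**
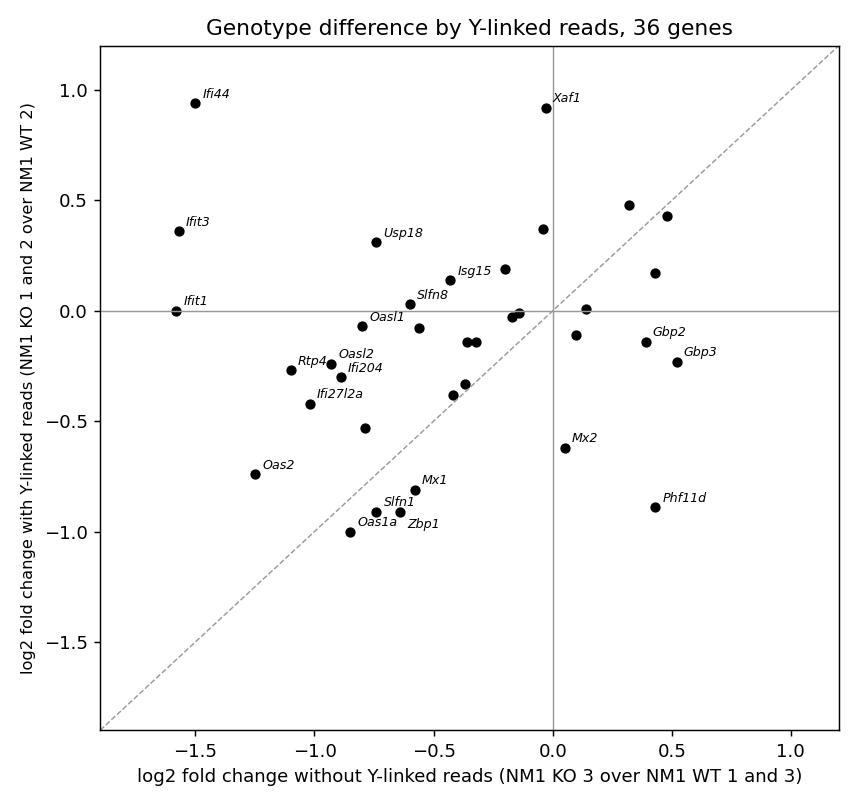
Log2 fold change, NM1 KO over NM1 WT, within libraries without Y-linked reads (horizontal axis) and with them (vertical axis), 1 point per gene for 36 genes; Ifit3b is left out as it rests on 2 counts in NM1 WT 2. Slfn1, Oas1a, Zbp1 and Mx1 are below 0 on both axes, while Ifit1 is at -1.58 on the horizontal and 0.00 on the vertical axis.

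Upstream of these genes, the ligands were hardly measured. Of 18 type I interferon genes, 17 were listed at 0 counts in every library, among them Ifnb1 and 13 Ifna genes, and Ifnz had at most 4 counts in any library. The floor of 6 counts per library allowed up to 0.261 to 0.407 CPM, for counting error only, and reads shared between near-identical Ifna copies may have been dropped. Ifnk overlaps the annotated gene Mob3b, and Trex1, a nuclease on the list of brakes that overlaps Atrip, was also listed at 0 counts in every library. The part of overlapping annotation and shared reads in these counts of 0 was not tested.

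The receptor and its kinases were present in all libraries and showed small differences. Ifnar1 ranged from 52.3 to 68.1 CPM in NM1 KO and from 58.4 to 68.5 CPM in NM1 WT (log2 fold change -0.08, adjusted p = 0.812), and Ifnar2 from 72.8 to 79.9 and from 82.8 to 97.8 CPM (-0.24, adjusted p = 0.352). Jak1 had a log2 fold change of 0.14 (adjusted p = 0.585) and Tyk2 one of -0.23 (adjusted p = 0.436). Jak2, a kinase of the interferon gamma receptor, had 0.44 (adjusted p = 0.122). Irf7, the factor that amplifies interferon production, had 56.3, 60.0 and 67.7 CPM in NM1 KO and 142, 63.3 and 116 CPM in NM1 WT (log2 fold change -0.80, adjusted p = 0.127). In Irf7, as in Ifit1, NM1 WT 2 was the lowest NM1 WT library and lay within the NM1 KO range.

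Other genes of the pathway came from lists of sensing adaptors and kinases, brakes and further interferon-stimulated genes. Of 81 tested pathway genes, these lists and the receptor list included, 0 passed the adjusted threshold, 24 were lower and 3 higher at an unadjusted p under 0.05, and 66 were negative, with a median log2 fold change of -0.24. Over all tested genes 0.776% passed, 8.32% were lower and 8.44% higher at that p, and 49.8% were negative. Among 50 further interferon-stimulated genes 43 were negative, with a median of -0.28. Slfn4, a Schlafen gene of myeloid cells, had 103, 73.3 and 79.2 CPM in NM1 KO and 208, 150 and 127 CPM in NM1 WT, with no overlap (-0.92, adjusted p = 0.0513). Ly6e, a membrane protein that blocks virus entry, had 705, 597 and 732 CPM against 1010, 924 and 1080 CPM, also with no overlap (-0.57, adjusted p = 0.0743). Among the brakes, Samhd1, which depletes nucleotides, had a log2 fold change of -0.66 (adjusted p = 0.0933) and the phosphatase Ptpn6 -0.42 (adjusted p = 0.175). The RNA-sensing adaptor Mavs had 0.72 (adjusted p = 0.142) and the kinase Ikbke -0.43 (adjusted p = 0.236).

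Markers of cell types that carry these genes were measured in the same libraries, and their counts are read against the 49.8% of all genes that were negative. The summed level of 10 plasmacytoid dendritic cell markers, the main interferon producers, was 351 to 376 CPM in NM1 KO and 313 to 414 CPM in NM1 WT, with 9 of 10 negative and a median log2 fold change of -0.21. Tcf4 and Spib had the highest levels on that list and so weigh most in its sum. Spib (0.46, adjusted p = 0.161), its only positive gene, and Siglech (-0.37, adjusted p = 0.255) alone did not overlap between the genotypes. For 13 monocyte and macrophage markers the summed level was 1396 to 1637 and 1700 to 2257 CPM, with 10 of 13 negative. Their median was -0.33, and the highest sum was in NM1 WT 2. For 15 neutrophil markers it was 39727 to 51709 and 51708 to 70379 CPM, with 15 of 15 negative and a median of -0.46, close to that of the antiviral genes. None of these 3 lists had a gene past the adjusted threshold. NM1 WT 2, low for Ifit1 and Oasl2, had 67686 CPM of the neutrophil markers. It had the lowest plasmacytoid dendritic cell sum of all libraries, at 313 CPM against 350 and 414 CPM in NM1 WT 1 and NM1 WT 3. Tcf4 weighs much in this, at 89.8 CPM in NM1 WT 2 against 139 and 179 CPM. Single genes of the list were mixed. In NM1 WT 2, Tcf4 and Runx2 were at their lowest of all libraries, and Ccr9 and Lair1 at their highest.

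Other marrow lists moved further, where 0.186% of all genes passed as lower and 0.591% as higher. Of 8 eosinophil and basophil markers 7 passed the threshold as lower in NM1 KO (median -1.61, summed 925 to 1425 against 2555 to 4027 CPM). Of 8 platelet and megakaryocyte markers 7 passed as higher (median 1.35, 1845 to 4013 against 911 to 1193 CPM). Skeletal muscle markers summed to 59.6 to 74.1 against 16.3 to 26.5 CPM, with 3 of 7 tested past the threshold as higher. Erythroid markers had a median of 0.22 (79797 to 85096 against 64631 to 89942 CPM), B cell markers 0.12 (2672 to 2783 against 1847 to 4310 CPM) and T and NK cell markers -0.01 (127 to 145 against 127 to 141 CPM, with Cd4 past the threshold as higher). The erythroid and B cell sums were lowest in NM1 WT 2, at 64631 and 1847 CPM. No marker on any list was at 0 in all libraries, and the part of these markers in the levels of the antiviral genes was not tested.

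Promoter letters and genotype differences were set side by side as a description. The 18 genes with an ISRE core had a median log2 fold change of -0.25 and the 9 without it -0.21. The 10 genes not analysed for promoter letters had a median of -0.69, with 10 of 10 negative. Among the 9 without the core, values ran from -1.15 for Oasl2 and -0.80 for Slfn1 to 0.29 for Ifit2. Among the genes with 3 copies, Ifit1, Ifit3 and Ifit3b had -1.27, -1.21 and -0.93 but Isg15 only -0.25. Whether the number of copies goes with the genotype difference was not tested.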

How the data were processed

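RNAzol served for extraction and a NEBNext Ultra II kit for the libraries, per the labels' protocols. Per the submitters' processing notes the authors used HISAT2 2.0.4, HTSeq, SAMtools 0.1.19, Trimmomatic 0.36 and FastQC, with GRCm38 and mm10. How HTSeq was set for strand, and which annotation release it read, is not given in the sources used here. The deposited files hold raw counts per Ensembl gene. Low counts were nearly all even (in NM1 KO 1, 2417 genes with a count of 2 and 6 with a count of 1), so both mates of a pair appear to have been counted, and counting errors and floors here use read pairs and cover counting error only. Symbols came from GENCODE M21 of GRCm38 (46091 of 46603 genes; the others held at most 0.0532% of a library).

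Genes were kept by filterByExpr, scaled with TMM and tested with edgeR 4.0.16 (R 4.3.3, quasi-likelihood, genotype as the only term, Benjamini-Hochberg over all tested genes, threshold 0.05). Of 104 pathway genes listed, 102 matched. The alternatives were other scalings, filters and tests (DESeq2 1.42.0, limma-voom from limma 3.58.1), a replicate block, a term for Y-linked reads, halved counts, a fit without haemoglobin, immunoglobulin and mitochondrial genes, and each library left out. The interaction fit was added after the data were seen. On simulated counts for 14682 genes of this comparison, 44 of 100 genes changed 2-fold and 82 of 100 changed 4-fold were recovered, with 10 false calls among 136.

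The members and gene lists were chosen with earlier results of these data known. Full values per library are given for the gene of smallest p in each role, for all genes whose genotypes did not overlap and for the 5 genes with the largest ratio between libraries of a genotype, and ranges for the others. Of the pathway lists, Ifnar1, Ifnar2, Jak1, Tyk2, Irf7 and the 2 genes of smallest p per list are named, and 1 further gene of the rule is not reported here. Usp18, Oasl1, Irf9, Dhx58, Eif2ak2, Gbp2, Gbp7, Slfn5, Rtp4 and Parp14 share exon positions with another annotated gene, and their reads cannot be told apart from its reads.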

Additional observations from a re-analysis of the deposited data

Results flagged for a closer look

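For 6 genes every library with Y-linked reads differed between the genotypes in one direction and every library without them in the other. The share of all genes with this pattern was not counted, so the number 6 is a description only. Gbp2 rests on a near tie, at 13.4 CPM in both NM1 KO 2 and NM1 WT 2. Phf11d does too, at 1.97 CPM in both NM1 KO 3 and NM1 WT 3. The genotype effect with minus without Y-linked reads, on the log2 scale, was 4.76 for Ifit3b (which rests on 2 counts in NM1 WT 2), 1.04 for Usp18 and 0.39 for Rsad2, where NM1 KO was lower only in libraries without Y-linked reads. It was -0.53 for Gbp2, -0.75 for Gbp3 and -1.32 for Phf11d, where NM1 KO was lower only in libraries with them. The interaction term gave adjusted p values of 0.319 for Ifit3b, 0.324 for Usp18, 0.572 for Rsad2, 0.587 for Gbp2, 0.433 for Gbp3 and 0.626 for Phf11d, so none of these 6 differences passed. With 1 NM1 WT library that has Y-linked reads and 1 NM1 KO library that has none, the state and the single animal cannot be told apart.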

How the results depend on the processing

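The median log2 fold change of the 37 genes was negative in all 19 alternatives, from -0.60 without NM1 WT 2 to -0.26 without NM1 WT 1, and -0.11 within the libraries with Y-linked reads. The number of the 37 past the threshold was 0 in the reported fit, 12 with no low-count filter, 9 with DESeq2, 8 with limma-voom with quality weights, 7 with the likelihood ratio test and 1 without haemoglobin, immunoglobulin and mitochondrial genes, and 0 to 7 with a library left out (7 without NM1 WT 2). With the replicate block it was 4. It was 0 with the other scalings, the filter of 1 CPM, limma-voom, halved counts and the term for Y-linked reads. It was also 0 with any library other than NM1 WT 2 left out. All genes that passed were lower in NM1 KO, and Oas2, Oas3 and Ifi27l2a passed in 6 of the 19 alternatives each. Against these, 4.67%, 5.49%, 3.20%, 3.59%, 1.39%, 2.18% and 2.79% of all genes passed with no filter, DESeq2, quality weights, the likelihood ratio test, the fit without those genes, without NM1 WT 2 and with the block. Of the pathway genes, 14 passed with no filter, 12 with DESeq2, 9 with quality weights, 6 with the likelihood ratio test, 7 with the replicate block, 2 without haemoglobin, immunoglobulin and mitochondrial genes, 1 with total counts, 1 with halved counts and 0 to 12 with a library left out (1 without NM1 KO 1, 12 without NM1 WT 2). Direction turned 14 times among the fits of single genes: Ifit3b had 0.36 with limma-voom and 0.43 with a term for Y-linked reads, Cmpk2 -0.01 with upper-quartile scaling and -0.06 with quality weights, Phf11d 0.05 with quality weights, and the others came from leaving out 1 library. With each library left out in turn, the values ran from -1.49 to 0.64 (without NM1 WT 1) for Ifit3b, -0.16 to 0.15 (without NM1 KO 1) for Ifih1, -0.28 to 0.04 (without NM1 WT 1) for Rsad2, -0.52 to 0.15 (without NM1 WT 2) for Phf11d and -0.15 to 0.00 (without NM1 WT 1) for Parp14. They ran from -0.08 (without NM1 KO 3; -0.02 without NM1 WT 2) to 0.11 for Cmpk2, from -0.08 (without NM1 KO 3) to 0.21 for Gbp2 and from -0.04 (without NM1 WT 2) to 0.43 for Xaf1. None of these 14 values passed the threshold, and the cause of the changes was not tested. Across single genes and alternatives, 641 values kept their direction and side of the threshold and 48 passed it in the same direction. To check the replicate numbers, each gene's genotype mean was subtracted from its log2 levels. These deviations correlated at 0.0919, 0.13 and 0.0644 between same-numbered libraries of the 2 genotypes. Not all were above 0.1, so the numbers were not taken as pairs. Of the other genotype's libraries, the deviations of each library still correlated best with those of its own number. The CV of the low genes Ifit3b (118%) and Ifi44 (51.1%) in NM1 WT exceeded the 23.1% and 21.7% that counting read pairs would give, as did that of Phf11d (46.4% against 25.8%). Depth limits the 2 counts of Ifit3b in NM1 WT 2, which lie under the floor of 6.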
